A study of Mus musculus with 4 samples.

Results

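Oocytes were sought among the dissociated cells of whole mouse ovaries, in 4 droplet libraries (10x Genomics, 3′ counting of unique molecular identifiers, UMIs, each standing for 1 captured transcript). A barcode, the tag of 1 droplet, was called an oocyte barcode when it held at least 500 genes, more than 1000 UMIs and less than 10% mitochondrial UMIs, had at least 4 of the 9 oocyte genes Zp1, Zp2, Zp3, Ooep, Padi6, Oosp1, Gdf9, Bmp15 and Nlrp5, and carried at least 20 of their UMIs per 10,000. This rule found 174 oocyte barcodes among the 47782 barcodes that passed the filters on genes, UMIs and mitochondrial share. Because the barcodes were chosen by their own counts of these 9 genes, the 9 genes carry no test here, and the levels of all genes in oocyte barcodes against other barcodes are a description. Tests between the genotypes are given for genes outside the rule.

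All animals were 8-week-old females of the same litter. Both control libraries, Fosl2F/F 1 and 2, came from Fosl2flox/flox mice, and both libraries labelled Fosl2cKO came from Cyp19a1-Cre; Fosl2flox/flox mice. Every group therefore carried the floxed Fosl2 alleles, and the groups differed by the Cre. Cyp19a1 encodes aromatase, and the study uses this Cre as specific to granulosa cells, the somatic cells that surround the oocyte. The comparison thus asked how oocytes differed when the AP-1 transcription factor Fosl2 was targeted in the cells around them. The stated n is 2 per group, equal to the number of libraries, but whether each library came from 1 mouse or from pooled ovaries is not given in the sources used here, so p-values measure only the spread between these libraries, which may be technical.

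A growing oocyte stores most of the RNA and protein that the embryo will use before its own genome is read. It builds the zona pellucida, a coat of glycoproteins that sperm must cross, and assembles the subcortical maternal complex beneath its membrane. It also secretes growth factors of the TGF-beta family, which act on the granulosa cells around it, and it holds its messenger RNAs in a repressed state through RNA-binding proteins. Oocytes are arrested in the first meiotic prophase until ovulation, and a fully grown oocyte is far larger than the somatic cells of the ovary. The cell suspension was passed through a 70 μm strainer, and fully grown mouse oocytes are about as wide as such a mesh or wider.

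The 4 libraries held 116670912 to 144955216 UMIs in 7175 to 24320 barcodes past the filters. Library Fosl2F/F 2 stood apart, with 24320 such barcodes at a median of 3978 UMIs outside the oocyte set, against 7175 to 8780 barcodes and medians of 11416.5 to 12905 UMIs in the other 3. Any pair of libraries shared 12 to 49 barcode sequences past the filters, and no barcode was an oocyte barcode in both of a pair. The targeted gene did not separate the groups. In barcodes called granulosa by their own marker rule, Fosl2 was at 161 and 183 counts per 1000000 UMIs (CPM) in the libraries labelled Fosl2F/F and at 173 and 119 CPM in those labelled Fosl2cKO. Where the counted 3′ reads lie relative to the floxed exons was not tested, so this level does not check the deletion. The paper reports loss of Fosl2 protein by immunoblot in granulosa cells of Fosl2cKO mice, which is not a measure of these libraries. The genotypes are used here as the labels give them.

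Oocyte barcodes were few in every library. There were 28 in Fosl2F/F 1, 109 in Fosl2F/F 2, 20 in Fosl2cKO 1 and 17 in Fosl2cKO 2, and together they held between 0.0518% and 0.349% of a library's UMIs. At the lower limit of the rule, the lowest member carried 20 UMIs of the 9 genes per 10,000 and the highest barcode outside it 19.9. Including the lowest, 18 members lay under 25 per 10,000, while 31 had exactly 4 of the 9 genes, and 23 had all 9. The limits left out 132 barcodes with at least 4 of the genes at a lower share, and 33 barcodes with 3 of the genes at a sufficient share. Another 175 barcodes met the gene criterion and failed a quality filter, 162 of them for having at most 1000 UMIs.

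The oocyte barcodes were shallow. The median oocyte barcode held 1750 UMIs in Fosl2F/F 1, 2076 in Fosl2F/F 2, 1791.5 in Fosl2cKO 1 and 5189 in Fosl2cKO 2, whereas the median of all other barcodes was 11416.5, 3978, 12743 and 12905 UMIs in the same order. Oocyte barcodes held fewer UMIs than the rest in all 4 libraries. The range was wide, from 1006 UMIs to 99965 UMIs, and 38 of the 174 barcodes held over 5000 UMIs. The deepest barcode supplied 18.7%, 14.8%, 23.6% and 52.5% of the summed oocyte UMIs of its library, so that the sum for Fosl2cKO 2 was largely that of 1 barcode. That barcode held 5 of the 319 UMIs of H1foo in its library and 2 of the 101 of Mos, but 59 of the 60 of Sohlh1 and 28 of the 42 of Nobox. CPM in Fosl2cKO 2 were lowered by it for genes like the first 2 and raised for genes like the last 2. The summed depth was 88441, 505990, 63265 and 190294 UMIs.

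Malat1 and ribosomal protein messages took a smaller share of the oocyte barcodes than of the rest. Malat1, a long noncoding RNA retained in the nucleus, had a median of 9.17 UMIs per 10,000 in Fosl2F/F 1, 125 in Fosl2F/F 2, 12.3 in Fosl2cKO 1 and 7.77 in Fosl2cKO 2, against 94.7, 178, 190 and 138 in the other barcodes. Ribosomal protein genes took a median of 5.82%, 8.01%, 3.89% and 4.15% of the UMIs, against 10.3% to 12.7% in the other barcodes. Both measures were lower in the oocyte barcodes of all 4 libraries, and the gap was smallest in Fosl2F/F 2. The mitochondrial share had no such common direction, with medians of 3.43%, 2.21%, 3.52% and 0.41% in oocyte barcodes and 2.75% to 3.28% in the others.

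Fosl2F/F 2 was set apart by the kind of barcodes it contributed. The 86 other oocyte genes listed here, outside the 9 of the rule, were summed per barcode, and this share fell into an upper band and a broad lower one. A line at 300 UMIs per 10,000 was drawn after these values were seen, and 4 barcodes lay between 250 and 350. Above the line were 26, 40, 17 and 13 barcodes, called high-share here, which made up 92.9% of the oocyte barcodes of Fosl2F/F 1, 36.7% of Fosl2F/F 2, 85% of Fosl2cKO 1 and 76.5% of Fosl2cKO 2. Below the line, 12 barcodes had more UMIs of 6 early germline genes (Ddx4, Dazl, Figla, Lhx8, Sohlh1 and Sycp3) than of 6 genes of grown oocytes (H1foo, Btg4, Mos, Zar1, Bcl2l10 and Npm2) and are called early-gene. The remaining 66 are called low-share, and 61 of them came from Fosl2F/F 2. These sets are a description of the barcodes, chosen on their values, and carry no test.

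**Figure D1:**
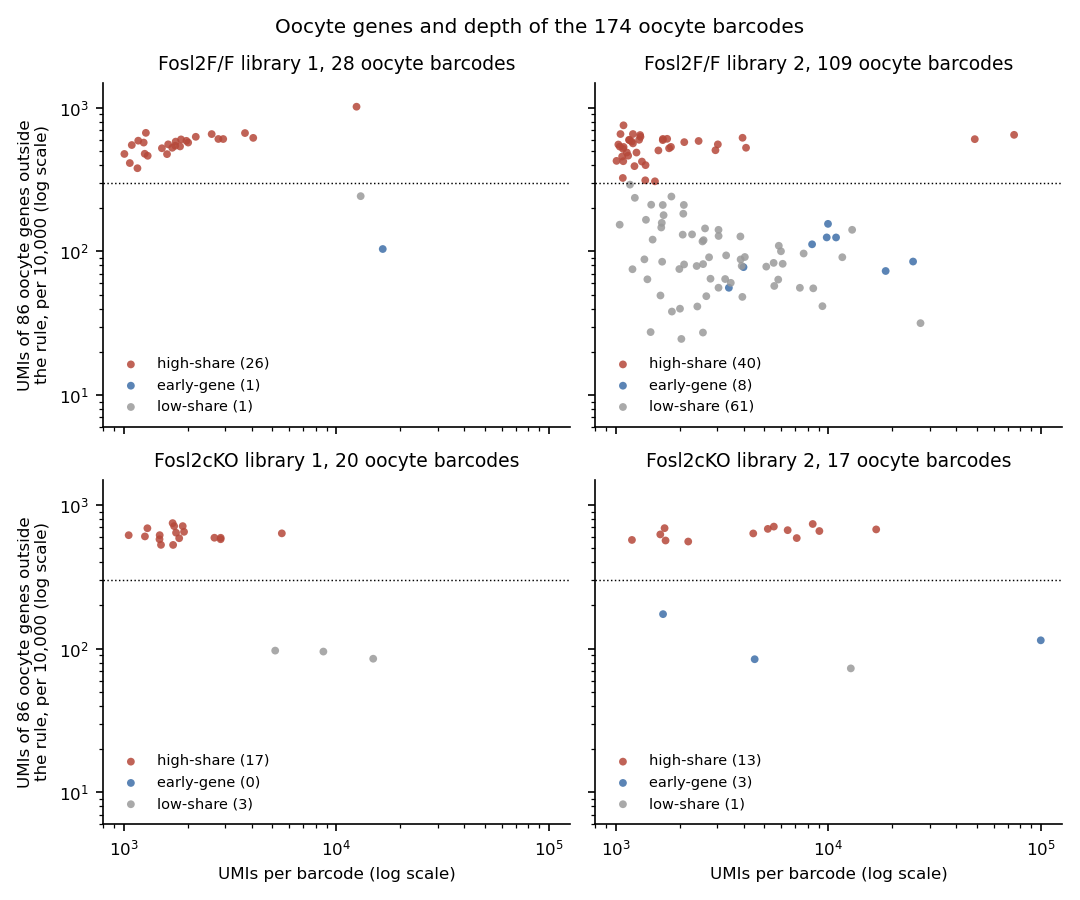
Each point is 1 oocyte barcode, with its UMIs on the horizontal axis and the UMIs of 86 oocyte genes outside the rule per 10,000 on the vertical axis, both on log scales, in a panel for each library. High-share barcodes (red) lie at or above the dotted line at 300, and most of the 66 low-share barcodes (grey) are in Fosl2F/F 2.

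The high-share barcodes were alike across libraries in their oocyte gene share, which the line itself bounds from below. Their median share of the 86 genes was 573 UMIs per 10,000 in Fosl2F/F 1, 546 in Fosl2F/F 2, 617 in Fosl2cKO 1 and 659 in Fosl2cKO 2. Of the 96, 91 had less than 50 UMIs of Malat1 per 10,000, and only 1 met the granulosa marker rule. By contrast, the low-share barcodes had a median of 88.0 UMIs of the 86 genes per 10,000 and 211 of Malat1. Among these 66, 14 met the granulosa rule and 2 the macrophage rule. In the same order, Inha, the granulosa inhibin subunit, was at 247 CPM in the summed high-share barcodes, 221 CPM in the early-gene barcodes and 1546 CPM in the low-share ones. Col1a2, a collagen of stromal cells, was at 20.1, 18.8 and 432 CPM. The somatic genes were thus highest in the low-share set, where Malat1, at 20348 CPM, was also highest. No doublet caller was run here, and the part of free RNA or of droplets with several cells in these values was not tested.

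The deepest low-share barcode, with 27150 UMIs, came from Fosl2F/F 2. It held 11 UMIs of Zp1, 25 of Zp2 and 34 of Zp3, but 3 of Ooep, and its granulosa markers stood at 56.0 UMIs per 10,000 with 100 UMIs of Inha. A similar barcode of that library, with 9378 UMIs, had 16 UMIs of Zp2, 22 of Zp3, 3 of Ooep and 56 of Inha. In both, zona genes far outnumbered Ooep, while in the summed high-share barcodes Ooep stood at 6381 CPM and Zp3 at 1663 CPM. Early-gene barcodes of that library showed this too. The early-gene barcode with 25047 UMIs held 15 UMIs of Zp1, 20 of Zp2, 15 of Zp3 and 2 of Ooep. 

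The 12 early-gene barcodes had Zp2 and Nlrp5 in amounts like those of the high-share barcodes and less of Zp3, Ooep and Gdf9. Their median depth was 9893 UMIs over 4830.5 genes, with 0.768% mitochondrial UMIs and 1.75% ribosomal protein UMIs. Some of the 12 calls rest on few molecules, such as 2 UMIs of early genes against 0 of late genes in a barcode with 3402 UMIs. Zp2 stood at 695 CPM in the high-share barcodes, 771 CPM in the early-gene barcodes and 341 CPM in the low-share ones. Nlrp5, a core member of the subcortical maternal complex, stood at 557, 771 and 160 CPM in the same order. One barcode of Fosl2cKO 2 held 47.0% of the UMIs in the early-gene sums, and values without it are given where they move by more than 1.5 times. Zp2, Nlrp5 and Padi6 are genes of the rule, and a barcode low in Ooep, Oosp1 and Gdf9 could meet it only through the others, so that their level here is partly fixed by the choice of barcodes. Zp2 and Nlrp5 were as high or higher in the early-gene barcodes, and Padi6 was not far below, at 700 CPM against 1057 in the high-share ones. Other genes of the same lists were lower, with Zp3 at 639 CPM against 1663, Ooep at 757 against 6381 and Oosp1 at 23.5 against 2531. Without the deepest barcode these were 1011 CPM of Zp3, 275 CPM of Ooep and 44.3 CPM of Oosp1. Outside the rule, the zona and surface list summed to 3.34 UMIs per 10,000 and the maternal complex list to 7.94 in the early-gene barcodes, against 34.8 and 116 in the high-share ones and 5.33 and 15.2 in the low-share ones. The zona and surface list was at 5.41 without the deepest barcode. Gdf9 stood at 3479, 122 and 627 CPM, H1foo at 3881, 47.0 and 522 CPM, and Mos at 1221, 14.1 and 129 CPM. Without the deepest barcode, Gdf9 was at 70.9 CPM and Mos at 8.87 CPM in the early-gene barcodes. H1foo and Mos helped to define the set, and Gdf9 is a gene of the rule, so that these levels are a description only. The early genes that defined the set were not all high in it. Dazl stood at 282 CPM and Lhx8 at 165 CPM, below the oocyte sums of every library, at 366 to 712 and 208 to 317 CPM. Figla stood at 136 CPM. Ddx4 stood at 315 CPM, above the oocyte sums of every library, at 45.2 to 152 CPM. Without the deepest barcode, Dazl was at 168 CPM and Figla at 35.5 CPM, while Ddx4 was at 479 CPM.

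Among the early-gene barcodes, those of Fosl2F/F 2 differed from the deepest one of Fosl2cKO 2. The barcode of Fosl2cKO 2 had 99965 UMIs, 10517 genes and 4.35% mitochondrial UMIs. It held 59 UMIs of Sohlh1, a transcription factor of oocytes in small follicles, 54 of Sycp3, a protein of the meiotic chromosome axis, 41 of Dazl, 187 of Dppa3 and 3 of the giant muscle gene Ttn. An early-gene barcode of Fosl2F/F 1, with 16545 UMIs, held 8 UMIs of Sohlh1, 5 of Sycp3 and 9 of Ttn. The 8 of Fosl2F/F 2 had no UMI of Sohlh1 and 3 to 87 UMIs of Ttn, with mitochondrial shares of 0.305% to 1.08%. Not all of Fosl2cKO 2 stood apart in this way, since another of its early-gene barcodes, with 4500 UMIs, held 9 UMIs of Ttn, none of Sohlh1 and 0.733% mitochondrial UMIs. Summed over all 12, Ttn reached 1537 CPM, and 2872 CPM without the deepest barcode, against 31.6 CPM in the high-share barcodes and 10.4 CPM in the low-share ones. Morc1, a germline gene known for transposon silencing, reached 616 CPM, against 17.2 and 0 CPM. With few early-gene barcodes in a library, Sohlh1 was at 90.5 CPM in Fosl2F/F 1, 1.98 CPM in Fosl2F/F 2, 0 CPM in Fosl2cKO 1 and 315 CPM in Fosl2cKO 2.

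**Figure D2:**
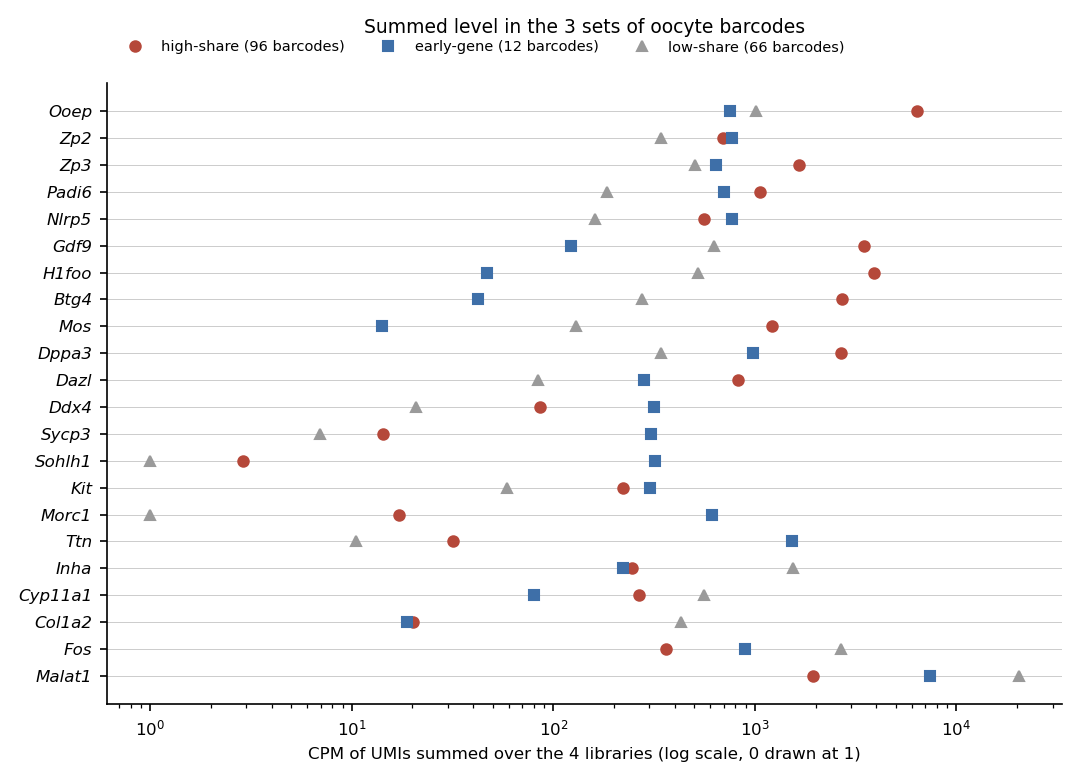
Summed level of 22 genes in the 3 sets of oocyte barcodes, in CPM over the 4 libraries on a log scale, with 0 drawn at 1. Circles are the 96 high-share, squares the 12 early-gene and triangles the 66 low-share barcodes, and squares lead for Ttn, Morc1, Sohlh1 and Sycp3 while triangles lead for Inha, Col1a2, Fos and Malat1. Sycp3 and Sohlh1 helped to define the early-gene set. The deepest barcode carried 54 of the 65 UMIs of Sycp3 and 59 of the 68 of Sohlh1 in the early-gene sum.

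The defining oocyte markers Zp3, Ooep, Padi6 and Gdf9 are part of the rule, so their presence does not check the label. Over all genes, the 20 with the highest lowest ratio of CPM in oocyte barcodes to CPM in the other barcodes, over the 4 libraries, were led by Elobl, Fgf8, Nlrp4a and Oog4. Elobl, an elongin B-like gene, was at 2307 CPM in Fosl2F/F 1, 957 in Fosl2F/F 2, 1280 in Fosl2cKO 1 and 1687 in Fosl2cKO 2, against 1.13, 5.43, 0.205 and 1.21 CPM in the other barcodes. The levels in oocyte barcodes were far above the others in every library. Of 1299 genes with at least 100 CPM in the oocyte barcodes of every library, 154 had a ratio over 10 in all 4 libraries and 63 a ratio over 100. Genes of the rule were not taken out of these counts. The median lowest ratio over 7972 genes with UMIs in every library was 0.886. Of the 86 listed oocyte genes outside the rule, 75 had UMIs in every library, and 70 had their lowest CPM in oocyte barcodes above their highest CPM in the others, a position held by 31.2% of the 7972 genes. The share over all genes is the background that the rule's own contrast gives, and nothing further is read from the count.

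Genes of the zona and the oocyte surface were carried by all libraries. Zp3, a structural glycoprotein of the zona, was at 1685 CPM in Fosl2F/F 1, 842 in Fosl2F/F 2, 1249 in Fosl2cKO 1 and 1083 in Fosl2cKO 2, against 1.77, 10.1, 0.598 and 1.60 CPM in the other barcodes. Zp2, which binds sperm, was at 667, 603, 632 and 526 CPM in the same order. Oosp3, an oocyte-secreted protein gene outside the rule, was at 1425, 700, 1170 and 678 CPM. The order of libraries was not shared: Zp2 was nearly even, while Zp3 and Oosp3 were highest in Fosl2F/F 1. Izumo1r, the egg receptor for the sperm protein Izumo1 that is also called Juno, was at 339, 115, 174 and 184 CPM and at most 1.33 CPM in the other barcodes. Cd9, a membrane protein needed for sperm fusion, was at 418, 306, 316 and 189 CPM, but it was also at 84.8 to 137 CPM in the other barcodes. All 5 members of this list outside the rule had higher CPM in every oocyte sum than in any other sum. Of the 7972 genes with UMIs in every library, 31.2% lay in that position, and nothing further is read from the count.

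Subcortical maternal complex genes were also present in all libraries. Ooep, a KH-domain protein of the complex, was at 4534 CPM in Fosl2F/F 1, 2899 in Fosl2F/F 2, 3620 in Fosl2cKO 1 and 3027 in Fosl2cKO 2, against 7.43 to 31.8 CPM in the other barcodes. Padi6, which forms the cytoplasmic lattices, was at 464, 698, 285 and 830 CPM. Zbed3, a member outside the rule, was at 6920, 3399, 4378 and 3904 CPM. While Ooep and Zbed3 were highest in Fosl2F/F 1, Padi6 was highest in Fosl2cKO 2. The members Tle6, Khdc3, Nlrp2, Nlrp4f and Zbed3, all outside the rule, summed to 86.7, 48.8, 65.4 and 52.8 UMIs per 10,000. They summed to 7.94 in the early-gene barcodes and 116 in the high-share ones. An early-gene barcode held 52.5% of the UMIs of Fosl2cKO 2 and lowered the sum there.

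Among secreted ligands, receptors and junction genes, Gdf9, the TGF-beta family factor that drives granulosa cells around the oocyte, was at 2431 CPM in Fosl2F/F 1, 1544 in Fosl2F/F 2, 1280 in Fosl2cKO 1 and 1787 in Fosl2cKO 2. Bmp15, its X-linked partner, was at 803, 664, 632 and 257 CPM. The deepest barcode of Fosl2cKO 2 held 52.5% of the UMIs there and 0 of Bmp15, which lowered the last value. Fgf8, which acts on cumulus cells, was at 204, 215, 553 and 289 CPM. Rspo2, an enhancer of Wnt signalling, was at 430, 294, 126 and 189 CPM. Rspo2 was lower in both libraries labelled Fosl2cKO and Fgf8 was higher in both, without passing the test given with the comparison of genotypes. Gja4, the connexin of the gap junctions between oocyte and granulosa cells, was at 577, 377, 616 and 515 CPM and at most 19.9 CPM elsewhere. Kit, the receptor for the granulosa Kit ligand, was at 305, 164, 142 and 205 CPM, with 6.87 to 12.6 CPM in the other barcodes. Bmp6 was an exception in this list, at 21.0 to 142 CPM in oocyte barcodes and 27.0 to 42.0 CPM in the others.

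The transcription factors of the germline were low. Lhx8, a LIM-homeodomain factor, was at 317 CPM in Fosl2F/F 1, 208 in Fosl2F/F 2, 300 in Fosl2cKO 1 and 231 in Fosl2cKO 2, and at most 1.65 CPM in the other barcodes. Nobox, an oocyte homeobox factor, was at 170, 88.9, 79.0 and 221 CPM. Figla, the helix-loop-helix factor of the zona genes, was at 45.2, 41.5, 47.4 and 158 CPM. Of these 3, Nobox and Figla were highest in Fosl2cKO 2, the library of the deepest early-gene barcode, which alone held 28 of its 42 UMIs of Nobox and 25 of its 30 UMIs of Figla. Foxo3, which restrains the activation of resting oocytes, was at 174 to 247 CPM in oocyte barcodes and at 140 to 224 CPM in the others, so that the ranges overlapped. Of the 10 factors in this list, 6 had UMIs in every library and 4 had every oocyte sum above every other sum. That position was held by 31.2% of the 7972 genes, and nothing further is read from the count. Taf7l had no UMI in any oocyte barcode.

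The list of germ-cell RNA regulators also holds Bcl2l10, which is not a regulator of RNA. The list took 83.2, 45.5, 69.1 and 57.1 UMIs per 10,000 in the oocyte barcodes of Fosl2F/F 1, Fosl2F/F 2, Fosl2cKO 1 and Fosl2cKO 2. Btg4, the adaptor that brings the deadenylase to maternal messages at meiotic maturation, was at 2318 CPM in Fosl2F/F 1, 1071 in Fosl2F/F 2, 1897 in Fosl2cKO 1 and 878 in Fosl2cKO 2. Zar1, an RNA-binding protein of stored messages, was at 950, 723, 1027 and 951 CPM. Bcl2l10, a Bcl2 family gene of the oocyte, was at 2307, 852, 1881 and 841 CPM. Btg4 and Bcl2l10 were both higher in Fosl2F/F 1 and Fosl2cKO 1 than in the other 2 libraries. In Fosl2cKO 2 the deepest barcode held 52.5% of the UMIs but 3 of the 167 of Btg4. The CPM of Btg4 in that library was lower with this barcode than without it. Dazl, a translation regulator, was at 712, 366, 379 and 520 CPM, and the germ-cell helicase Ddx4 at 45.2, 152, 111 and 78.8 CPM. In this list 13 of 14 genes had every oocyte sum above every other sum, a position held by 31.2% of the 7972 genes. Nothing further is read from the count. Mael, of the transposon-silencing pathway, had no UMI in the oocyte barcodes of Fosl2cKO 1.

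In the list of meiosis and maturation genes, Mos, the kinase of meiotic arrest at metaphase, was at 1119 CPM in Fosl2F/F 1, 417 in Fosl2F/F 2, 854 in Fosl2cKO 1 and 531 in Fosl2cKO 2, against 0.156 to 3.55 CPM in the other barcodes. Wee2, the oocyte kinase that holds Cdk1 inactive, was at 249, 180, 174 and 215 CPM. Ccnb1, the cyclin partner of Cdk1, was at 927, 405, 569 and 478 CPM in oocyte barcodes and 34.2 to 53.7 CPM in the others. These 3 were separate from the other barcodes in all libraries. The genes of dividing cells did not all separate: Cdk1 was at 63.2 to 215 CPM in oocyte barcodes and 67.5 to 114 CPM in the others. Rec8, a meiotic cohesin, had no UMI in the oocyte barcodes, and Sycp3 had none in those of Fosl2cKO 1.

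Maternal chromatin genes were present throughout. H1foo, the oocyte linker histone, was at 3969 CPM in Fosl2F/F 1, 1372 in Fosl2F/F 2, 2324 in Fosl2cKO 1 and 1676 in Fosl2cKO 2, and at 0.516 to 11.5 CPM in the other barcodes. Dppa3, which protects the maternal genome from demethylation, was at 2205, 1065, 1233 and 2249 CPM. Dnmt1, the maintenance DNA methyltransferase, was at 984, 1081, 1075 and 373 CPM, with 34.3 to 50 CPM elsewhere. Dnmt1 was even in 3 libraries and lowest in Fosl2cKO 2, where the deepest barcode held 52.5% of the UMIs but 5 of the 71 of Dnmt1. The CPM of Dnmt1 there was lower with this barcode than without it. All 8 genes of this list had every oocyte sum above every other sum, as had 31.2% of the 7972 genes, and nothing further is read from the count.

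Oocyte gene families, none of them in the rule, took 143, 75.3, 104 and 78.4 UMIs per 10,000, against at most 0.67 in the other barcodes. They took 22.9 in the early-gene barcodes and 175 in the high-share ones. An early-gene barcode held 52.5% of the UMIs of Fosl2cKO 2 and lowered the value there. The order of the libraries below is Fosl2F/F 1, Fosl2F/F 2, Fosl2cKO 1 and Fosl2cKO 2. E330034G19Rik was at 2499 CPM in Fosl2F/F 1, 1174 in Fosl2F/F 2, 2371 in Fosl2cKO 1 and 1251 in Fosl2cKO 2. Khdc1b, of the KH-domain family, was at 2058, 960, 1928 and 1219 CPM. Nlrp14, of the NLR family, was at 452, 812, 664 and 462 CPM. E330034G19Rik and Khdc1b were higher in Fosl2F/F 1 and Fosl2cKO 1 than in the other 2 libraries, and Nlrp14 was highest in Fosl2F/F 2. Members of these families resemble each other in sequence, and how the counting split reads between close copies was not tested.

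**Figure D3:**
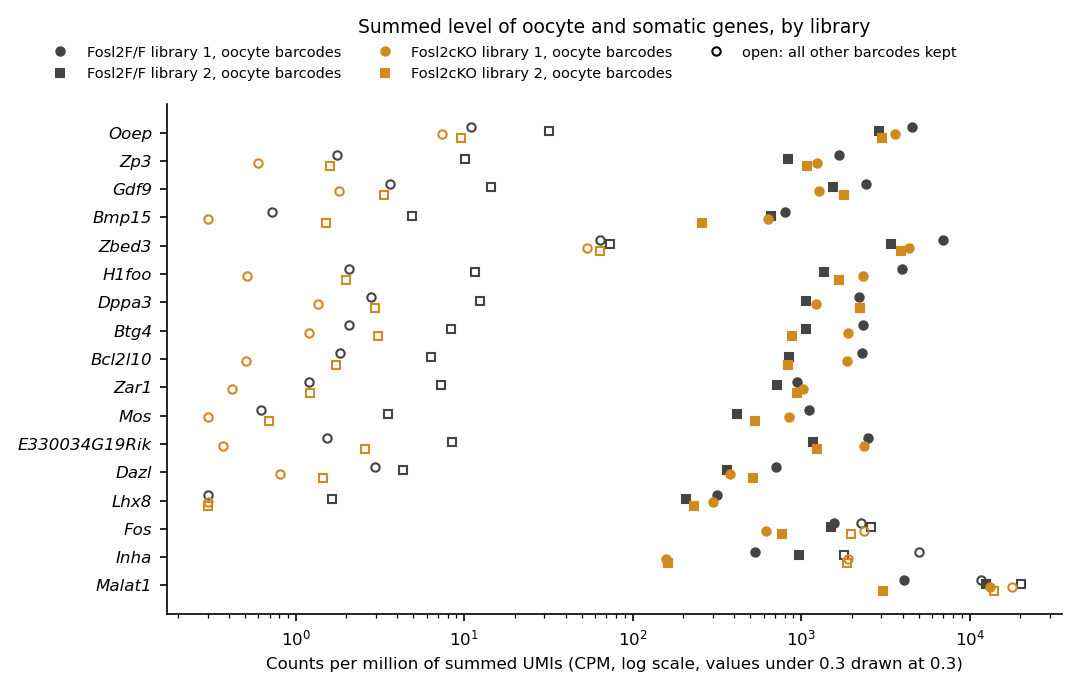
Summed level of 17 genes in each library, in CPM on a log scale, with values under 0.3 drawn at 0.3. Filled symbols are oocyte barcodes and open symbols all other barcodes kept, and filled symbols lie far above open ones for the oocyte genes from Ooep to Lhx8, while for Fos, Inha and Malat1 the filled symbol of each library lies below its open one.

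Shares of barcodes with a UMI were set beside those of macrophage barcodes, a cell type that should lack oocyte genes, after each barcode was thinned to 1000 UMIs. The macrophage barcodes had median depths of 9045, 3020, 10265.5 and 8877 UMIs before thinning. Ooep was found in 100%, 76.1%, 90.0% and 94.1% of oocyte barcodes, and in 2.04%, 5.79%, 0% and 1.87% of macrophage barcodes, in the order of the libraries above, where 0 of 302 allows a share of up to 0.993%. Without thinning, the shares of oocyte barcodes were 100%, 93.6%, 100% and 94.1%, and those of macrophage barcodes were 12.9%, 14.3%, 2.32% and 7.94%. H1foo, outside the rule, was found after thinning in 92.9%, 56.0%, 90.0% and 70.6% of oocyte barcodes, against 0.680%, 1.88%, 0.331% and 1.4% of macrophage barcodes, and without thinning in 100%, 82.6%, 100% and 88.2%. H1foo was above this background in every library. Ooep was too, but it is a gene of the rule, so that its share was partly fixed by the choice of barcodes. Both were least often found in Fosl2F/F 2, but that order was not shared by all genes of the rule. Nlrp5 was found after thinning in 7.14%, 30.3%, 25% and 29.4% of oocyte barcodes. Low genes could not be set apart in every library, and Figla was found in 0 of 28 oocyte barcodes of Fosl2F/F 1 after thinning. Such values vary with the draw. A separate draw for the 26 high-share barcodes of Fosl2F/F 1 found Figla in 1 and Nlrp5 in 5, where Nlrp5 was in 2 of the 28 above. Inha was found after thinning in 67.9%, 33.9%, 15% and 17.6% of oocyte barcodes, against 36.1%, 24.8%, 12.9% and 10.3% of macrophage barcodes, which should lack it too. The unthinned Inha shares were 89.3%, 56.9%, 25% and 47.1% of oocyte barcodes and 89.8%, 51.7%, 56.3% and 57.5% of macrophage barcodes.

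Many of the genes with the highest ratios lay side by side in the genome. Of the 63 genes with a ratio over 100 in every library, 24 (38.1%) lay within 200 kb of another, in 8 clusters. Of the other 1236 genes of at least 100 CPM, 20 (1.62%) lay within 200 kb of any of the 63. Genes of the rule, whose ratios were partly fixed by the choice of barcodes, were not taken out of the 63. Oosp1 is among them. The largest cluster, on chromosome 9 at chr9:109139447-109626057 (GRCm38, GENCODE gene models), held the F-box genes Fbxw21, Fbxw20, Fbxw16, Fbxw19, Fbxw15 and Fbxw24 over 486.6 kb. Another on that chromosome, at chr9:78311972-78368177, held Omt2a, Omt2b and Dppa5a, with Ooep at chr9:78376109-78378725 beside it. The secreted protein genes Oosp2, Oosp1 and Oosp3 lay at chr19:11647279-11711874, Gm13023, Gm13084 and Gm13103 at chr4:143789352-143853637, and the oligoadenylate synthetase genes Oas1e, Oas1h and Oas1d at chr5:120786226-120921652. The remaining 3 were the pairs Tcl1b1 with Tcl1, Oog3 with C87977, and Nlrp9c with Nlrp4a. Close copies in a cluster may share reads, so that a gene's own level is less certain than that of its cluster.

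Promoters of these genes were read for the E-box, the letters CANNTG, to which the oocyte factor FIGLA binds together with its partner at zona genes. The motif reads the same on both strands and was searched over 300 bases, 250 before to 50 after each start in RefSeq (GRCm38.p6). The windows of 5 genes are shown because their transcripts are among those described above and have an entry in the table used. Other genes met this too, and Zp3, Ooep and Padi6 are genes of the rule. Capitals mark each E-box. Zp3 (chr5:135979855-135980154, + strand), Ooep (chr9:78378539-78378838, − strand), Padi6 (chr4:140742594-140742893, − strand), H1foo (chr6:115944681-115944980, + strand) and Btg4 (chr9:51115751-51116050, + strand) read 5′ to 3′ as follows.
Zp3: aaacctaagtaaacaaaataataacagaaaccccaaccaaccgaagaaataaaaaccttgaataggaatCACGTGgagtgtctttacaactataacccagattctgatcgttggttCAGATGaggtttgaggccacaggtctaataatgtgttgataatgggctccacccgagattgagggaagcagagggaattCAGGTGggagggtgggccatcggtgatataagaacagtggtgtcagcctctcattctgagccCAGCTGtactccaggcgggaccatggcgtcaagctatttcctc
Ooep: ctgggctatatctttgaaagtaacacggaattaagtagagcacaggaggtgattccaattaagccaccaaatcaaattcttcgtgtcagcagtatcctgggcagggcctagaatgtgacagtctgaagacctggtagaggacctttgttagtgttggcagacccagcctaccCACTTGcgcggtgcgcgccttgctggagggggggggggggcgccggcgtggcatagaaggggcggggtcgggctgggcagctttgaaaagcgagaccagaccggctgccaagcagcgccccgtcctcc
Padi6: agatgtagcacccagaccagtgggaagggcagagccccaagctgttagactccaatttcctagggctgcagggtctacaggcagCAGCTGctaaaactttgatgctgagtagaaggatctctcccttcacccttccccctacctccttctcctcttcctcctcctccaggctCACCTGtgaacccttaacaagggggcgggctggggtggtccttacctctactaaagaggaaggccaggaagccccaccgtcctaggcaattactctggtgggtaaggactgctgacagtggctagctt
H1foo: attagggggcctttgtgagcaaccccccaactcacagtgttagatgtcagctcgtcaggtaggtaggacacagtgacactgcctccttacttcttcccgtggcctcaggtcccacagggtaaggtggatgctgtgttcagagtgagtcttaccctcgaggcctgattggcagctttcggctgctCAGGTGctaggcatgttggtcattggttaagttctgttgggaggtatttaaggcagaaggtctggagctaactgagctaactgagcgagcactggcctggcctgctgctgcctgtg
Btg4: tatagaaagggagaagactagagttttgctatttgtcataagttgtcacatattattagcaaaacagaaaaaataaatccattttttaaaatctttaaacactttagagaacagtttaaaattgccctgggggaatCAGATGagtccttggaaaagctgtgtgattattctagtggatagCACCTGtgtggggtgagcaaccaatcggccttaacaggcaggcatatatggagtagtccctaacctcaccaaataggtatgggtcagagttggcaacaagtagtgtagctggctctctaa

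The 5 windows held 4, 1, 2, 1 and 2 E-boxes. In each, an E-box began between 55 and 78 bases before the start, at position −55 in Zp3, −78 in Ooep, −78 in Padi6, −66 in H1foo and −70 in Btg4. Not all genes of high ratio had an E-box at such a distance, as the shares below show. The motif is short and common, and 72.2% of 27025 promoters in the table held it. Of the genes with a ratio over 10, 125 of 154 (81.2%) had a promoter in the table, and 80.0% of them held an E-box, against 57.5% of 931 promoters of the genes with a ratio of at most 10. Of the 63 genes with a ratio over 100, which are part of the 154, 47 (74.6%) had a promoter there, and 95.7% of these held it. Genes of the rule were not taken out of the 63 or the 154. A stretch from 100 to 40 bases before the start was chosen after the positions were seen. There the shares were 41.6% for a ratio over 10, 59.6% for a ratio over 100, 16.8% for a ratio of at most 10 and 24.6% over all promoters. Base composition moved with the groups. The median GC content was 52.7% for a ratio over 10, 46.7% for a ratio over 100, 62.7% for a ratio of at most 10 and 52.7% over all. Its part in the shares was not tested, and a match is not a bound site.

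Granulosa markers were lower in the oocyte barcodes than in the rest of each library. The 9 granulosa markers took a median of 14.5 UMIs per 10,000 in Fosl2F/F 1, 7.16 in Fosl2F/F 2, 3.62 in Fosl2cKO 1 and 1.93 in Fosl2cKO 2, while in all other barcodes the medians were 37.0, 8.45, 4.82 and 5.45. In both kinds of barcode the median was highest in Fosl2F/F 1, and 45 of the 174 held no UMI of these markers. Medians were 0 in every library for the markers of luteal cells, endothelium, macrophages, lymphocytes, pericytes, epithelium and red cells, but they were 0 in the other barcodes too, so that these medians do not tell both kinds apart. By the mean over barcodes, macrophage markers took 0.504 to 3.70 UMIs per 10,000 in the oocyte barcodes and 3.71 to 8.87 in the others, and stromal markers 2.10 to 6.97 against at least 11.8. The 6 theca or steroidogenic markers had medians of 0.302, 4.92, 0 and 0 UMIs per 10,000, against 1.34, 4.33, 1.31 and 0.696 in the other barcodes, so that in Fosl2F/F 2 the oocyte barcodes were the higher ones. The highest single values were in Fosl2F/F 2, with 176 UMIs of macrophage markers per 10,000 in a barcode and 116 of granulosa markers in another.

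Whether targeting Fosl2 in granulosa cells went with fewer oocytes in the suspension was read from the share of oocyte barcodes. It was 0.319% in Fosl2F/F 1 (95% Wilson interval 0.221% to 0.461%), 0.448% in Fosl2F/F 2 (0.372% to 0.540%), 0.279% in Fosl2cKO 1 (0.181% to 0.430%) and 0.226% in Fosl2cKO 2 (0.141% to 0.362%). Intervals here cover counting error only. Both libraries labelled Fosl2cKO lay below both labelled Fosl2F/F, with means of 0.253% ± 0.0370 and 0.384% ± 0.0914 (SD, n = 2 each), and a log2 ratio of −0.60. An exact two-sided permutation test gave p = 0.333, the smallest p that 2 against 2 libraries allow, so the difference could not pass a threshold. It also depended on which barcodes were counted, in part on the low-share ones of Fosl2F/F 2. With the high-share barcodes alone the shares were 0.296%, 0.164%, 0.237% and 0.173%, the groups overlapped, and the log2 ratio was −0.17 (exact permutation p = 1). The groups also overlapped with at least 50 UMIs of the 9 genes per 10,000 (−0.31), with a higher minimum of UMIs (−0.63) and with under 5% mitochondrial UMIs (−0.42), each at an exact permutation p of 0.667. The groups stayed apart with at least 6 of the 9 genes (−0.24) and without the barcodes of the granulosa rule (−0.58). Each had an exact permutation p of 0.333, again the smallest possible. Without Fosl2F/F 2 the log2 ratio was −0.34. The share in a suspension also depends on dissociation and on the strainer, and it is not a count of oocytes in the ovary.

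**Figure D4:**
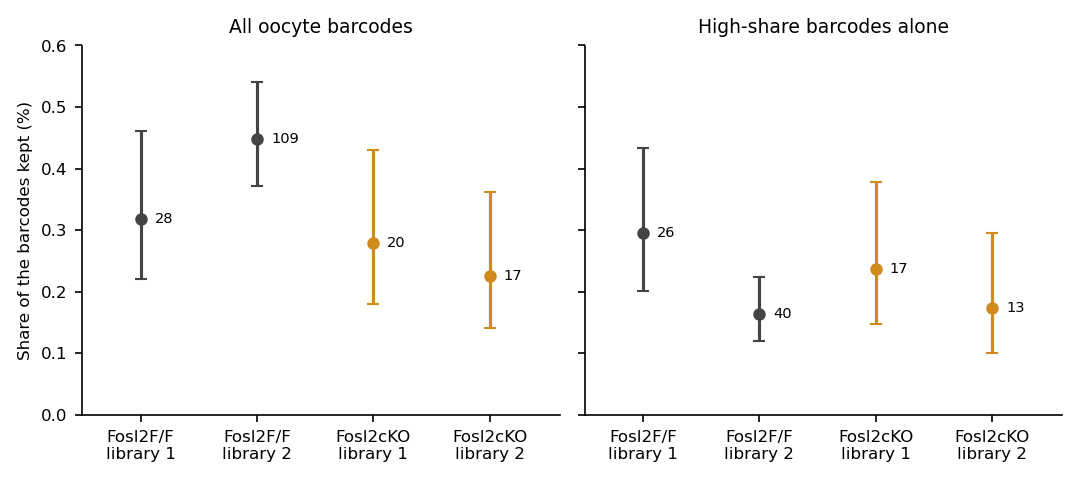
Share of oocyte barcodes among the barcodes kept in each library, in %, for all 174 oocyte barcodes (left) and the 96 high-share barcodes alone (right). Points are shares with the number of barcodes beside them, and bars are 95% Wilson intervals for counting error; Fosl2F/F 2 is the highest on the left and the lowest on the right.

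The granulosa RNA in oocyte barcodes was lower in both libraries labelled Fosl2cKO. The means of the library medians given above were 10.8 ± 5.19 UMIs per 10,000 in Fosl2F/F and 2.78 ± 1.20 in Fosl2cKO (SD, n = 2 each), a difference of −8.05 with an exact permutation p of 0.333, again the smallest possible. Among the high-share barcodes alone, the medians were 15.8, 2.97, 3.50 and 1.81, the groups overlapped, and the difference was −6.72 (exact permutation p = 0.667). Without Fosl2F/F 1 the difference was −4.38. The granulosa medians of all other barcodes had the same order of genotypes, at 37.0 and 8.45 in the libraries labelled Fosl2F/F and 4.82 and 5.45 in those labelled Fosl2cKO, and the lower values were thus not particular to the oocyte barcodes. Their part in the difference was not tested.

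No gene passed the test between the genotypes in the oocyte barcodes. UMIs were summed per library and compared by edgeR's quasi-likelihood test over 3873 genes, and 0 genes (0%) reached a Benjamini-Hochberg adjusted p under 0.1 with a log2 fold change over 0.25 in size. The lowest adjusted p was 0.999, 97 genes had an unadjusted p under 0.05, and DESeq2 likewise called 0 genes with 45 at an unadjusted p under 0.05. The power was small. Counts were simulated with the mean levels and depths of these libraries, but with a fixed dispersion in place of their own spread. In them the edgeR test recovered 2 of 177 genes changed 2-fold and 169 of 176 changed 8-fold. The recovery at 8-fold need not hold for the real counts, where log2 fold changes ran from −3.80 to 3.30 with none called. Moderate changes, such as 2-fold ones, were thus mostly undetectable with these libraries. The count of 0 was not stable to the settings, with 9 calls under no gene filter and 7 with the replicate number as a block. It was not stable to the choice of libraries either. Leaving out Fosl2F/F 1 gave 46 calls, leaving out Fosl2F/F 2 gave 63, leaving out Fosl2cKO 1 gave 6 and leaving out Fosl2cKO 2 gave 11, where the lone library is assumed to vary like the others. The early-gene barcode that made up 52.5% of the UMIs of Fosl2cKO 2 entered these sums.

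Oocyte genes showed no called difference. The 9 genes of the rule were part of the fit over all genes, but their fold changes are left out here. Of the 86 listed oocyte genes outside the rule, 67 had enough UMIs to be tested, 0 were called, and their median log2 fold change (Fosl2cKO over Fosl2F/F) was −0.23, against −0.02 over all genes tested. Values below 0 were found for 44 of the 67 (65.7%) and for 51.4% of all genes. Among the 67, Rspo2 alone had an unadjusted p under 0.05, with a log2 fold change of −1.16 ± 0.51 (SE) and an adjusted p of 0.999. The zona and surface list had a median of −0.43 (−0.85 to 0.22 over the alternatives), the subcortical maternal complex −0.02 (−0.37 to 0.53), the ligands and receptors −0.37 (−0.58 to 0.32) and the transcription factors 0.38 (−0.16 to 0.69). The RNA regulators had a median of 0.02 (−0.22 to 0.35), the meiosis genes −0.12 (−0.38 to 0.54), the chromatin genes −0.36 (−0.57 to 0.49) and the gene families −0.46 (−0.78 to 0.07). The sign of each of the 8 medians thus turned under at least 1 alternative. All 5 tested zona and surface genes outside the rule had values below 0, from −0.58 to −0.23, with a median SE of 0.51 over the 67 genes. Of the genes highest in their lists, Zbed3 had −0.34 ± 0.42, H1foo −0.44 ± 0.51 and Btg4 −0.32 ± 0.52 (SE). Their sign turned when the deepest barcode of each library was left out, with values of 0.26, 0.08 and 0.19.

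**Figure D5:**
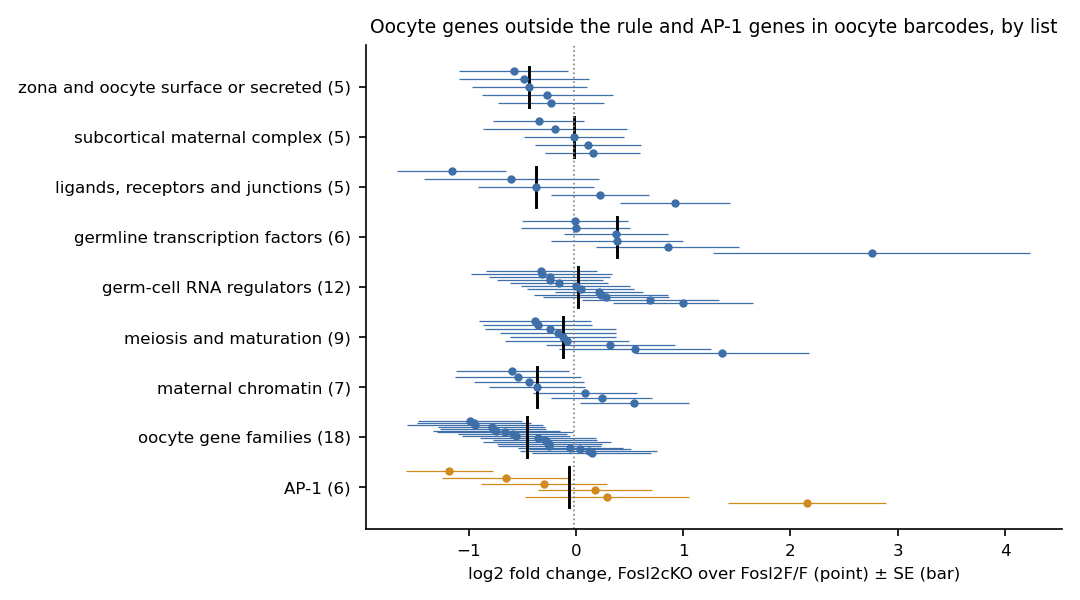
log2 fold change of each tested gene of the lists in oocyte barcodes, outside the rule, Fosl2cKO over Fosl2F/F, as points with bars of 1 SE, by list with the number tested. Black ticks are list medians, from −0.46 for the gene families to 0.38 for the transcription factors, and the dotted line is the median of all 3873 genes, −0.02.

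The gene with the lowest unadjusted p among those named here was Inha. It was at 531 CPM in Fosl2F/F 1, 966 in Fosl2F/F 2, 158 in Fosl2cKO 1 and 163 in Fosl2cKO 2, a log2 fold change of −2.27 ± 0.52 (SE) with an adjusted p of 0.999 by edgeR. The groups did not overlap, but the smallest exact permutation p for 2 against 2 libraries is 0.333, so non-overlap shows little by itself. Inha is a granulosa gene, and in the other barcodes it was at 5025, 1787, 1899 and 1881 CPM. The fold varied with the barcodes used, and it was −1.30 with the high-share barcodes alone and −1.60 without the barcodes that met the granulosa rule (adjusted p of 0.999 and 1 by edgeR). Leaving out Fosl2F/F 1 gave −2.63 with an adjusted p of 0.00578 by edgeR, and leaving out Fosl2F/F 2 gave −1.70 with an adjusted p of 0.172. Inha also passed the threshold with the replicate number as a block (−2.25, adjusted p = 0.0508 by edgeR) and with no gene filter (−2.31, adjusted p = 0.0524 by edgeR). Inhba, the paper's marker of mural granulosa cells and not in the marker list used here, had −3.18 ± 0.84 (SE, adjusted p = 0.999 by edgeR). That value rests on 12 and 48 UMIs in Fosl2F/F and 1 and 2 UMIs in Fosl2cKO. The other tested members of the granulosa marker list did not all follow Inha. Hsd17b1 had −0.83 ± 0.62, Nr5a2 0.003 ± 0.71 and Amhr2 1.72 ± 0.80 (SE), each with an adjusted p of 0.999 by edgeR. Amhr2 was at 11.3 and 31.6 CPM in Fosl2F/F and at 79.0 and 94.6 CPM in Fosl2cKO.

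AP-1 genes were lower in oocyte barcodes than in the rest of the ovary. These genes encode the Fos and Jun proteins, which pair to bind DNA, and Fosl2 is a Fos-family member. Together the 7 genes took 25 UMIs per 10,000 in the oocyte barcodes of Fosl2F/F 1, 42.6 in Fosl2F/F 2, 25.6 in Fosl2cKO 1 and 29.6 in Fosl2cKO 2, against 64.1, 75.5, 73.8 and 75.7 in the other barcodes. In the high-share barcodes the sum was 10.2 per 10,000, in the early-gene barcodes 32.5, and in the low-share ones 71.5. The level thus followed the set, with the low-share barcodes close to the rest of the ovary. The highest CPM in oocyte barcodes lay below the lowest CPM elsewhere for 5 of the 7, and Jund and Fosl1 overlapped. Of the 7972 genes with UMIs in every library, 14.9% lay in that position, and nothing further is read from the count.

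Fosl2 itself was at 11.3 CPM in Fosl2F/F 1, 128 in Fosl2F/F 2, 94.8 in Fosl2cKO 1 and 116 in Fosl2cKO 2, and at 173, 244, 237 and 177 CPM in the other barcodes. The groups overlapped, and its log2 fold change was 0.29 ± 0.76 (SE, adjusted p = 0.999 by edgeR). High-share barcodes held 1, 9, 0 and 0 UMIs of Fosl2, and a count of 0 in the libraries labelled Fosl2cKO allows up to 87.0 CPM at 34492 UMIs and 42.0 CPM at 71405 UMIs. After thinning to 1000 UMIs, Fosl2 was found in 3.57%, 7.34%, 5% and 11.8% of oocyte barcodes and in 6.80%, 19.4%, 13.6% and 8.88% of macrophage barcodes, and without thinning in 3.57%, 30.3%, 10.0% and 11.8% against 46.9%, 44.0%, 65.9% and 49.5%. The oocyte shares lay below those of macrophage barcodes, which are no background for a gene that macrophages use, except in Fosl2cKO 2 after thinning. A difference in oocyte Fosl2 between the genotypes was not detectable with these libraries.

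Fos was at 1572 CPM in Fosl2F/F 1, 1506 in Fosl2F/F 2, 616 in Fosl2cKO 1 and 767 in Fosl2cKO 2, and at 1982 to 2598 CPM in the other barcodes. The groups did not overlap, which shows little by itself with 2 against 2 libraries, as said for Inha. The log2 fold change of Fos was −1.18 ± 0.40 (SE) with an unadjusted p of 0.0156 and an adjusted p of 0.999 by edgeR. With the high-share barcodes alone it was −0.73. Jund was at 33.9, 138, 174 and 694 CPM, a log2 fold change of 2.15 ± 0.74 (SE, adjusted p = 0.999 by edgeR). The high value was in Fosl2cKO 2, where Jund was also highest in the other barcodes, at 1313 CPM against 223, 248 and 350 CPM. The other 4 AP-1 genes tested had an unadjusted p of at least 0.05, and Fosl1 was too low to be tested.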

How the data were processed

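Ovaries of 4 samples were profiled by droplet 3′ RNA sequencing, 2 libraries per genotype. The authors aligned reads to GRCm38 with Cell Ranger and kept uniquely mapped reads. The deposited matrices hold UMI counts, whole numbers over 32285 genes per barcode, and the file headers name Cell Ranger 7.1.0, while the submitters' processing notes name Seurat 4.1.0; the methods name other versions of both. The methods describe CellBender correction for free RNA and removal of doublets with DoubletFinder, and whether either is in the deposited counts is not given in the sources used here. Barcodes were kept at no less than 500 genes, over 1000 UMIs and under 10% mitochondrial UMIs, of 57109 deposited. No doublet caller was run on them here, and no clustering or deposited annotation was used.

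The oocyte rule was applied to the counts as deposited. Granulosa barcodes (16568) had at least 4 of 9 markers and macrophage barcodes (1406) at least 3 of 6, each with at least 20 UMIs per 10,000. The oocyte rule, the gene lists and the marker lists were chosen with earlier results of these data known. Named genes were the 9 of the rule, the lists by role, the AP-1 genes and the 20 leading genes of at least 100 CPM. These 20 were ranked by their lowest ratio (a pseudocount of 1 UMI). Genes of the single barcodes and of the sets (Ttn, Morc1, Malat1, Inha and Inhba as fold changes) were named after their values were seen. CPM are counts per 1000000 UMIs, summed per library, and counts at the 3′ end do not scale with transcript length.

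Summed counts were tested with edgeR 4.0.16 in R 4.3.3 (filterByExpr, TMM, quasi-likelihood F test, Benjamini-Hochberg adjustment) and, as an alternative, DESeq2 1.42.0. The SE is the size of the log2 fold change over the square root of F. The 9 genes of the rule stayed in this fit, and their fold changes are not reported. Shares and medians were compared by exact permutation over libraries (scipy 1.17.1). The edgeR and DESeq2 scripts were tested on simulated data with 200 changed genes drawn and a fixed dispersion, not the spread of these libraries. Thinning drew 1000 UMIs per barcode with a fixed seed, and the high-share barcodes were drawn separately from the whole oocyte set. No barcode was lost, since all held more. Alternatives changed the cut on the 9 genes, the number of genes, depth, mitochondrial and hemoglobin limits, normalization, gene filter and replicates. The alternatives with the high-share barcodes alone and without the deepest barcode of each library were added after seeing the data. Promoter sequences came from RefSeq, GRCm38.p6, matched by symbol, and gene positions from GENCODE models of GRCm38.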

Additional observations from a re-analysis of the deposited data

How the results depend on the processing

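The share of oocyte barcodes and the granulosa median kept their direction in all 26 alternatives, with log2 ratios of −0.89 to −0.17 and differences of −11.7 to −4.38 UMIs per 10,000. Leaving out each library gave −0.83 to −0.34 for the share and −11.7 to −4.38 for the granulosa median. The smallest exact permutation p is 0.333, and the genotypes overlapped in the share with a higher limit on the 9 genes, a higher minimum of UMIs and a lower mitochondrial limit (exact permutation p = 0.667 each) and with the high-share barcodes alone (p = 1). The count of genes called was 0 in the main test, 6 to 63 when a library was left out, 9 with no gene filter (17695 genes tested) and 7 with the replicate block. The replicate numbers are shared by the genotypes, but the labels state no pairing and there are only 2 pairs, so the block is given as an alternative only. All other settings of this test, DESeq2 included, gave 0. Of 102 fold changes of the 6 genes followed, 10 turned in sign, all of Zbed3, H1foo and Btg4. With at least 50 UMIs of the 9 genes per 10,000, Zbed3 was at 0.15, H1foo 0.090 and Btg4 0.12, and without the deepest barcodes the values were 0.26, 0.079 and 0.19. Leaving out 1 library each gave −0.73 to 0.23 for Zbed3, −0.98 to 0.49 for H1foo, −0.97 to 0.30 for Btg4, −1.56 to −0.89 for Rspo2, −1.39 to −1.04 for Fos and −2.63 to −1.70 for Inha. Inha passed the threshold without Fosl2F/F 1 (−2.63), with no gene filter (−2.31) and with the replicate block (−2.25). Without thinning, the mean share of oocyte barcodes with a UMI was 87.8% for Zp3 and 13.9% for Fosl2, against 71.6% and 6.92%. The cause of these changes was not tested. In 3 of the 4 libraries the median depth was at most 2076 UMIs per oocyte barcode, and the alternative with a higher minimum of UMIs also gave 0 calls; the part of depth apart from that of the 2 libraries per genotype was not tested.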

Other observations

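Ms4a1, a B-cell marker listed here for lymphocytes, was at 56.5 CPM in the oocyte barcodes of Fosl2F/F 1, 21.7 in Fosl2F/F 2, 31.6 in Fosl2cKO 1 and 31.5 in Fosl2cKO 2, against 0.783, 0.395, 0.450 and 0.678 CPM in the other barcodes. It was higher in the oocyte barcodes of all 4 libraries. Cd79a, another B-cell gene, had no UMI in any oocyte barcode, and the T-cell gene Cd3e had UMIs in the oocyte barcodes of Fosl2F/F 2 alone, at 1.98 CPM. By set, Ms4a1 was at 48.8 CPM in the high-share barcodes, 14.1 in the early-gene barcodes and 13.9 in the low-share ones. It was chosen after its values were seen, and it rests on 17 UMIs in the high-share barcodes. Without the deepest early-gene barcode it was at 26.6 CPM in the early-gene set.

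Uchl1, a ubiquitin hydrolase known from neurons and oocytes, was at 2374, 1184, 1391 and 2134 CPM in the oocyte barcodes of Fosl2F/F 1, Fosl2F/F 2, Fosl2cKO 1 and Fosl2cKO 2, and at 76.1, 54.8, 30.3 and 22.3 CPM in the other barcodes. Xdh, the xanthine dehydrogenase gene, was at 204, 273, 158 and 862 CPM. The high value in Fosl2cKO 2 came with 130 UMIs in its deepest early-gene barcode, and the summed early-gene barcodes stood at 1053 CPM against 213 CPM in the high-share ones.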
